A study of Mus musculus with 72 samples.

Results

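DNA end joining without any drug was followed from 4 Cas9 breaks in the mouse genome, on chromosomes 6, 8, 12 and 14. All 18 libraries labelled as parental Xrcc4/p53-deficient cells in the solvent control were taken, out of 60 break-joining libraries and 72 samples in the series. They were grouped by the chromosome of the break, which gave 9 libraries for chr6, 3 for chr8, 2 for chr12 and 4 for chr14. The cells are the line Nxp010, neural progenitor cells (NPC) derived from embryonic stem cells, and every group carries the genotype NestinCre+Xrcc4-/-p53-/- and received DMSO, the solvent of the drugs used elsewhere in the study. Since Nxp010 is a single line, the libraries repeat the assay rather than the animal. The study calls its repeats technical in one place and independent biological ones in another, so whether the libraries came from separate cultures is not settled. All p-values therefore measure the spread between these libraries only. The titles of 2 chr6 libraries and of all chr8 and chr12 libraries name a theta collection. Titles of the other 7 chr6 libraries and of the chr14 libraries name none, and these are called the promoter/enhancer collection here. Neither RNA nor copy number of these cells was analysed here, so the labelled cell type and genotype were taken as given.

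Double-strand breaks (DSBs) are mostly resealed by non-homologous end joining, in which Xrcc4 and DNA ligase IV seal the ends. Cells without Xrcc4 depend on alternative end joining, in which ends are cut back and paired through short stretches of identical sequence called micro-homology, often with polymerase theta, and loss of p53 lets such cells survive with unrepaired breaks. LAM-HTGTS, a high-throughput method that maps translocations across the genome after linear amplification, reads these joins. A primer next to the Cas9 cut copies the bait end, and the read runs on into whatever genomic end the bait was sealed to, called the prey. A prey past the cut in the same orientation records a deletion and in the opposite orientation an inversion. A prey on the primer side is a join of the bait to DNA behind its own break, and a prey on another chromosome is a translocation.

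The 4 guides are shown with the protospacer in lower case and the PAM, the triplet that Cas9 requires, in capitals, since they fix where each break lies (GRCm38, 5′ to 3′ on the guide's strand).
chr6: gagggttggaaatgctcgtaTGG
chr8: gtcgaccatatgctaatcttAGG
chr12: attccgccaaccctcgagatAGG
chr14: ggcttagttatagtaggggcTGG
The protospacers occupy chr6:70950106-70950125 and chr8:59477701-59477720 on the minus strand, and chr12:12994038-12994057 and chr14:83268830-83268849 on the plus strand. According to GENCODE M21 the chr6 break is intergenic, 6422 bp from *Foxi3*, a forkhead transcription factor gene. At chr8 the break is intergenic as well, with the lincRNA gene *Gm34370* 26190 bp away and the nearest protein-coding gene, *BC030500*, at 563.4 kb. The chr12 break cuts an exon of the lincRNA gene *Gm35208*, with *Mycn*, a MYC-family transcription factor gene, at 52.14 kb. The chr14 break lies farthest from genes, 136785 bp from the snoRNA gene *Gm24774* and 1174717 bp from *Pcdh17*, which encodes a protocadherin.

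Each cut is shown next with 30 bases of the bait in lower case and 30 bases past the cut in capitals, read in the direction of the primer, because the ends in lower case are what the joins below retain or lose.
chr6 cut: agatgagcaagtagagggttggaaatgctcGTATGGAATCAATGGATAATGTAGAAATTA
chr8 cut: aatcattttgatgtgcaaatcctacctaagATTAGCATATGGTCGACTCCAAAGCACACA
chr12 cut: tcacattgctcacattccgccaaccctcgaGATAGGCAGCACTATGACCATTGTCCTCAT
chr14 cut: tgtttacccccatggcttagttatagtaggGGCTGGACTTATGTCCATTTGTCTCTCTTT
These windows span chr6:70950079-70950138 on the minus strand, and chr8:59477674-59477733, chr12:12994025-12994084 and chr14:83268817-83268876 on the plus strand. GC content over 200 bp around the cut is 45% at chr6, 40% at chr8, 52% at chr12 and 41.5% at chr14. Over 200 kb it is 44.61%, 36.87%, 45.11% and 35.28%, so that chr6 and chr12 sit in GC-richer surroundings than chr8 and chr14. An intact bait is 98, 129, 132 and 164 bases long from the primer to the cut, in the same order.

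The libraries held 1139 to 36999 junctions on placed chromosomes. Replicate 2 with the chr14 bait stands apart, with 1139 junctions of which 154 lay more than 1 Mb from the cut, against 8323 to 9758 junctions in the other chr14 libraries. The main values that rest on it are given without it too. Read names place the 18 libraries on 9 sequencing runs, and no chr6 library shares a run with another bait, so break site and run cannot be told apart in the comparisons with chr6. The chr8 and chr14 libraries share 1 run. Of 46 pairs of libraries of the same bait, the most similar shared 1.46% of the translocations of the smaller library, and the median pair shared 0%. Reads carried no molecular identifiers, so intervals (95%, Wilson) cover counting error only.

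Deletions were the commonest outcome at all 4 sites, and they made up less of the repair at chr6 than at chr14. With the chr6 bait 40.7% to 56.9% of a library's junctions were deletions of up to 1 Mb (median 50.7%). With the chr14 bait the shares were 67.6%, 75.5%, 71.1% and 71.3%. All 9 chr6 libraries lay below all 4 chr14 libraries. The means were 50.4% ± 5.27 (SD, n = 9) and 71.4% ± 3.22 (n = 4), a difference of -21.0 percentage points (two-sided exact permutation test of library means, p = 0.0014, the smallest p this design allows, and adjusted p = 0.00932 over 40 tests of 10 measures in 4 pairs of sites). The chr8 libraries, with deletion shares of 72.8%, 71.7% and 71.2%, lay within the chr14 range. Those of chr12, at 59.0% and 61.6%, fell between chr6 and the other sites.

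**Figure D1:**
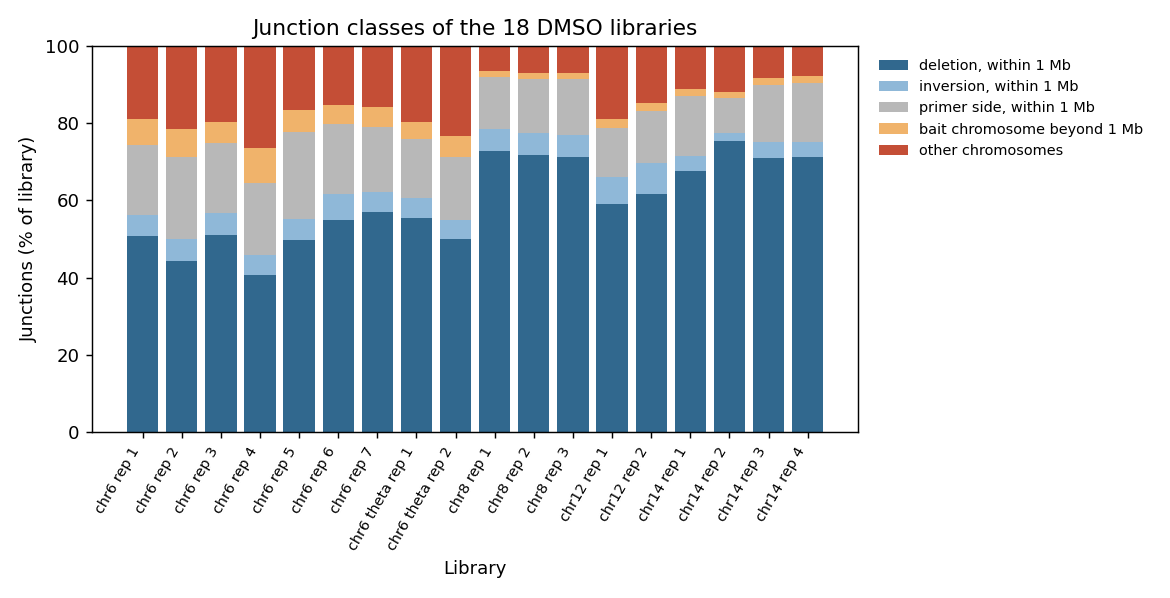
Share of each library's junctions (percent, stacked bars, 1 bar per library) in the 5 classes, in which the deletion and other near classes reach 1 Mb from the cut. Deletions fill 40.7% to 56.9% of the chr6 bars and 67.6% to 75.5% of the chr14 bars.

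Joins to distant DNA were commoner at chr6 than at chr14. Translocations to other chromosomes made up 15.3% to 26.4% of junctions with the chr6 bait (median 19.7%). The chr14 libraries gave 11.03%, 12.03%, 8.19% and 7.88%, with a counting interval of 10.3% to 14.05% for shallow replicate 2. No chr14 library reached the lowest chr6 library, and the means of 19.7% ± 3.64 and 9.78% ± 2.06 differed by a factor of 2.01 (exact permutation p = 0.0014, adjusted p = 0.00932). The chr8 bait gave the lowest translocation shares, 6.49%, 6.92% and 7.02%, which were 2.89 times lower than at chr6 on average (exact permutation p = 0.00455, the smallest possible, adjusted p = 0.0165). Against chr14 the chr8 mean was lower by 2.97 points with no overlap, a difference that did not pass the test (exact permutation p = 0.0857, adjusted p = 0.132). The chr12 libraries, at 18.9% and 14.8%, overlapped with chr6 (exact permutation, adjusted p = 0.351).

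Joins to the bait's own chromosome beyond 1 Mb separated chr6 from every other site. They formed 4.53% to 9.02% of junctions with the chr6 bait (median 5.46%). The shares were 1.52% to 1.61% at chr8, 2.03% and 2.26% at chr12, and 1.49% to 1.95% at chr14. The lowest chr6 library thus stood above the highest library of every other bait. On average chr6 was 3.86 times above chr8 (adjusted p = 0.0165), 2.81 times above chr12 (adjusted p = 0.0346) and 3.52 times above chr14 (adjusted p = 0.00932, all from exact permutation tests at the smallest p of their design). Set against translocations chr6 again had the highest mean, with 30.7 ± 4.85 such joins per 100 translocations, against 22.9 at chr8, 12.8 at chr12 and 18.1 at chr14. This rested on the promoter/enhancer collection, which had 32.8, whereas the theta collection had 23.2, within the chr8 range of 21.97 to 23.91. Of these joins 23.1% to 26.6% lay within 10 Mb of the cut at the 4 sites, with no test made.

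Deletions were shorter at chr14 than at any other site. The distance from the cut to the prey had a median of 846 to 1100 bp in the chr6 libraries (median library 900 bp). In the chr14 libraries it was 536, 209, 568 and 526 bp, the lowest belonging to replicate 2. The 2 groups did not overlap, with means of 944 ± 89.0 bp and 460 ± 168 bp, which is 2.05 times longer at chr6 (exact permutation p = 0.0014, adjusted p = 0.00932). Without replicate 2 the chr14 mean was 543 ± 21.9 bp and the difference from chr6 was 401 bp, which still passed (exact permutation, adjusted p = 0.0182). Medians of 765, 787 and 796 bp at chr8 lay between them, 1.70 times above chr14 (exact permutation p = 0.0286, the smallest possible, adjusted p = 0.0497) and 1.21 times below chr6 (adjusted p = 0.0346). The latter call was lost without any 1 of the 3 chr8 libraries (exact permutation, adjusted p = 0.0693 to 0.121). The call of chr8 against chr14 has no margin, since without chr14 replicate 2 the difference of 239 bp could not pass (exact permutation, adjusted p = 0.148). At chr12 the medians of 818 and 963 bp fell inside the chr6 range.

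Short deletions took a larger share at chr14. Deletions under 200 bp made up 34.8% of all deletions at chr14, or 30.1% without replicate 2, against 19.5% ± 2.11 at chr6, 21.7% at chr8 and 21.3% at chr12. At the other end, deletions of 10 kb to 1 Mb were rare everywhere and formed 2.07% at chr6, 1.55% at chr12, 0.785% at chr8 and 0.689% at chr14. The upper quartile of deletion length was 2065 bp at chr6, 1946 bp at chr12, 1649 bp at chr8 and 1191 bp at chr14. Joins on the primer side followed the same order at chr6 and chr14, with a median distance of 1034 ± 85.6 bp and 446 bp.

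**Figure D2:**
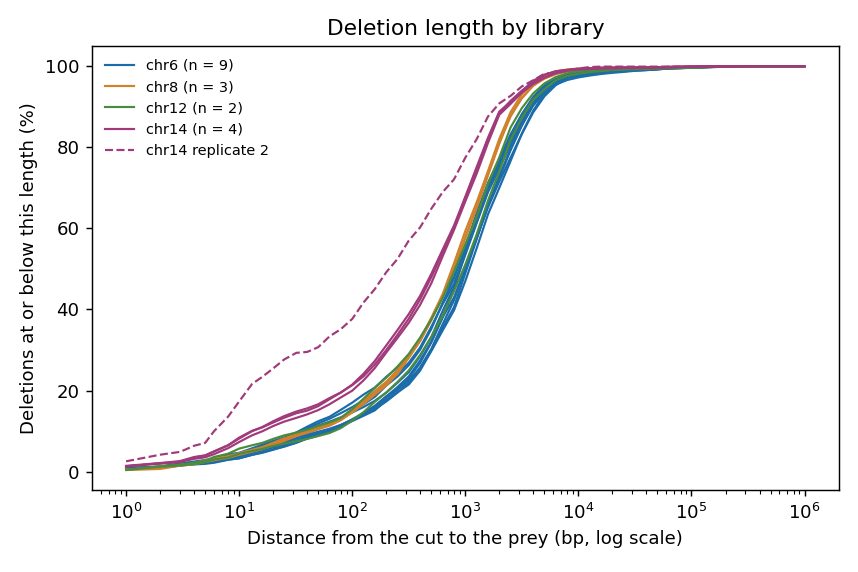
Cumulative share of deletions (percent) against distance from the cut to the prey (bp, log scale), 1 line per library, coloured by bait and dashed for chr14 replicate 2. Up to their medians the chr14 lines lie to the left of all others, with medians of 209 to 568 bp against 846 to 1100 bp at chr6.

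Inversions ranked the sites in another order, with chr12 and chr6 high and chr14 low. Of the junctions up to 1 Mb past the cut, 8.56% to 11.6% were inverted with the chr6 bait (median 10.1%). With the chr14 bait 5.54%, 2.38%, 5.50% and 5.15% were inverted. Every chr6 library exceeded every chr14 library, and the means of 9.96% ± 1.17 and 4.64% ± 1.52 differed 2.14-fold (exact permutation p = 0.0014, adjusted p = 0.00932). The chr8 libraries, at 7.21%, 7.51% and 7.58%, lay between, below chr6 (adjusted p = 0.0280) and 1.60 times above chr14 (exact permutation p = 0.0286, adjusted p = 0.0497). Without chr14 replicate 2, whose share rests on 21 inversions, the difference between chr8 and chr14 was 2.04 points (exact permutation, adjusted p = 0.148). Shares of 10.8% and 11.8% at chr12 did not differ detectably from chr6 (exact permutation, adjusted p = 0.234). Both chr6 libraries of the theta collection, at 8.58% and 8.57%, sat at the low end of the chr6 range.

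Because the sites differ in deletion length, inversions were also read within one distance range. From 200 bp to 10 kb past the cut 9.86% ± 1.35 were inverted at chr6, 10.7% at chr12, 6.54% at chr8 and 4.41% at chr14, or 5.43% there without replicate 2. In this range the order of the means was the same as over all distances. Under 200 bp it was not, with 8.96% at chr6, 13.1% at chr12, 10.3% at chr8 and 4.69% at chr14. From 10 kb to 1 Mb the shares were 21.4% at chr6, 15.5% at chr12, 14.4% at chr8 and 10.6% at chr14, or 14.1% there without replicate 2. They rest on few inverted joins a library, 7 to 15 at chr8 and 0 to 8 at chr14. Inverted joins had a shorter median distance than deletions at chr8, with 460 bp against 783 bp, and at chr12, with 622 bp against 890.5 bp. In the chr6 libraries of the theta collection the medians were 698.5 and 946.5 bp, and in those of the promoter/enhancer collection 923 and 944 bp.

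Joins to the primer side of the break were most frequent at chr6. They formed 19.9% to 29.8% of the junctions within 1 Mb with the chr6 bait (median 24.1%). The other sites gave 14.6% to 15.7% at chr8, 16.1% and 16.2% at chr12, and 17.7%, 10.6%, 16.4% and 16.9% at chr14. No library of another site reached the chr6 range. The chr6 mean of 24.8% ± 3.61 was 1.61 times that of chr14 (exact permutation p = 0.0014, adjusted p = 0.00932), 1.63 times that of chr8 (adjusted p = 0.0165) and 1.54 times that of chr12 (adjusted p = 0.0346). At all 4 sites most of these joins were in the orientation opposite to the bait: 80.6% ± 2.12 at chr6, 78.2% at chr8, 76.8% at chr12 and 75.6% at chr14.

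**Figure D3:**
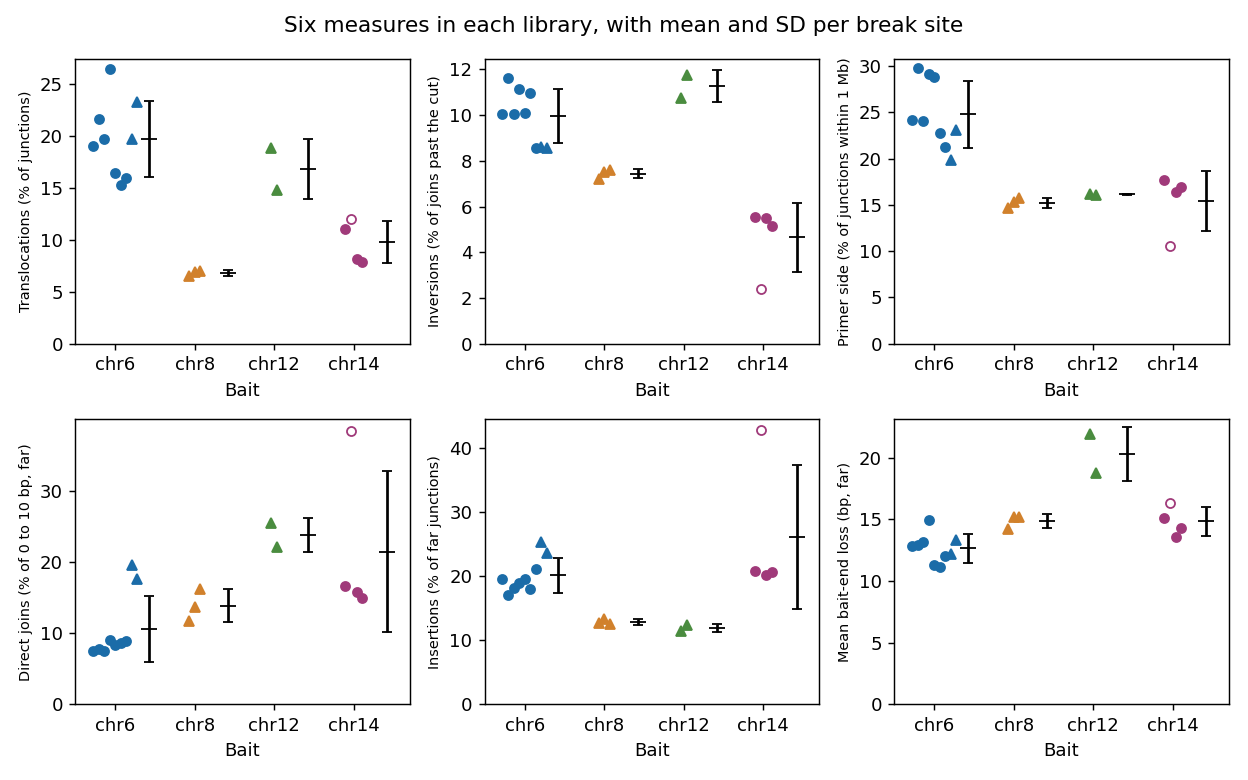
Values of 6 measures in each library by bait (points), with mean and SD (black, n = 9, 3, 2 and 4 libraries), where circles are the promoter/enhancer collection, triangles the theta collection and open circles chr14 replicate 2. Translocations, inversions and primer-side joins separate chr6 from chr14, while direct joins and insertions at chr14 are highest in replicate 2.

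Micro-homology was read at junctions more than 1 Mb from the cut, where every site has the whole genome as prey. Among those with 0 to 10 bp of micro-homology, 2 bp had the highest mean share at chr6, with 26.5% ± 1.04 in the promoter/enhancer collection and 22.5% ± 0.290 in the theta collection, and at chr8, with 22.5% ± 2.85. At chr14 the means at 2 bp and 0 bp were 21.9% and 21.4%, or 24.97% and 15.76% without replicate 2. At chr12 0 bp came first, with 23.8% against 19.03%. Long micro-homologies of 5 to 10 bp made up 14.8% ± 1.11 at chr6, 15.2% ± 0.99 at chr8, 14.7% ± 0.876 at chr12 and 14.9% ± 2.15 at chr14. No pair of sites passed the test for this share, with exact permutation adjusted p from 0.722 to 0.938 over the 4 pairs. Among bait ends that had lost at most 50 bp, however, chr6 was higher than chr14 by 1.82 points (exact permutation, adjusted p = 0.0448) and than chr12 by 2.43 points (adjusted p = 0.0383).

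Direct joins, with no shared base, differed more, but not only between sites. They made up 7.42% to 19.6% of the chr6 junctions (median 8.64%), 11.7%, 13.7% and 16.2% at chr8, 25.5% and 22.1% at chr12, and 16.6%, 38.4%, 15.8% and 14.9% at chr14. At chr6 the 7 libraries of the promoter/enhancer collection lay between 7.42% and 8.98%, and the 2 of the theta collection at 19.6% and 17.5%. By their read names the former were sequenced on MiSeq (median read 171 to 190 bp), and the theta libraries of chr6 on NextSeq (196 and 190 bp), as were all libraries of the other baits (213 to 248 bp), so collection and platform cannot be told apart at chr6. The difference of chr6 from chr14 was -10.9 points (exact permutation p = 0.014, adjusted p = 0.0346), but -5.25 points without chr14 replicate 2 (adjusted p = 0.124). With only the promoter/enhancer chr6 libraries, all on MiSeq, and without that replicate it was -7.55 points without overlap (exact permutation, adjusted p = 0.0303). With all libraries it shrank to -2.19 points (exact permutation, adjusted p = 0.461) when only bait ends that had lost at most 50 bp were counted. The chr12 share exceeded that of chr6 by 13.3 points without overlap (exact permutation p = 0.0182, the smallest possible, adjusted p = 0.0346). With losses of at most 50 bp the difference was 9.20 points and no longer passed (exact permutation, adjusted p = 0.0559). Over all losses chr12 exceeded the chr6 libraries of the theta collection alone by 5.26 points, and at losses of at most 50 bp their means were 19.5% and 18.1%. At chr12 it came with matches longer than 10 bp in 5.36% of distant junctions, against 0.389% at chr6, 0.756% at chr8 and 1.03% at chr14.

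In deletions 2 bp was the commonest length at all 4 sites. Micro-homology of 2 bp made up 31.4% ± 1.42 (chr6), 30.7% ± 0.377 (chr8), 31.6% ± 1.84 (chr12) and 31.1% ± 1.007 (chr14) of those with 0 to 10 bp. Direct joins formed 15.6% ± 1.87, 15.1%, 15.2% and 12.4% ± 2.27 of deletions, and the chr6 collections, which were far apart at distant junctions, gave 15.3% and 16.4%. Between chr6 and chr14 the direct-join difference was +3.19 points (exact permutation, adjusted p = 0.0494), opposite in sign to that of distant junctions. Without replicate 2 the chr14 mean was 13.5%, and the difference of 2.06 points did not pass (exact permutation, adjusted p = 0.144). Micro-homologies of 5 bp or more formed 5.55% of deletions at chr6 and 7.59% at chr14, a difference of -2.03 points that passed (exact permutation, adjusted p = 0.0187), where replicate 2 had 11.2% and the other chr14 libraries 6.28% to 6.56%. Without replicate 2 it was -0.823 points (exact permutation, adjusted p = 0.0758). Long micro-homology was therefore rarer in deletions than at distant junctions at all 4 sites.

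**Figure D4:**
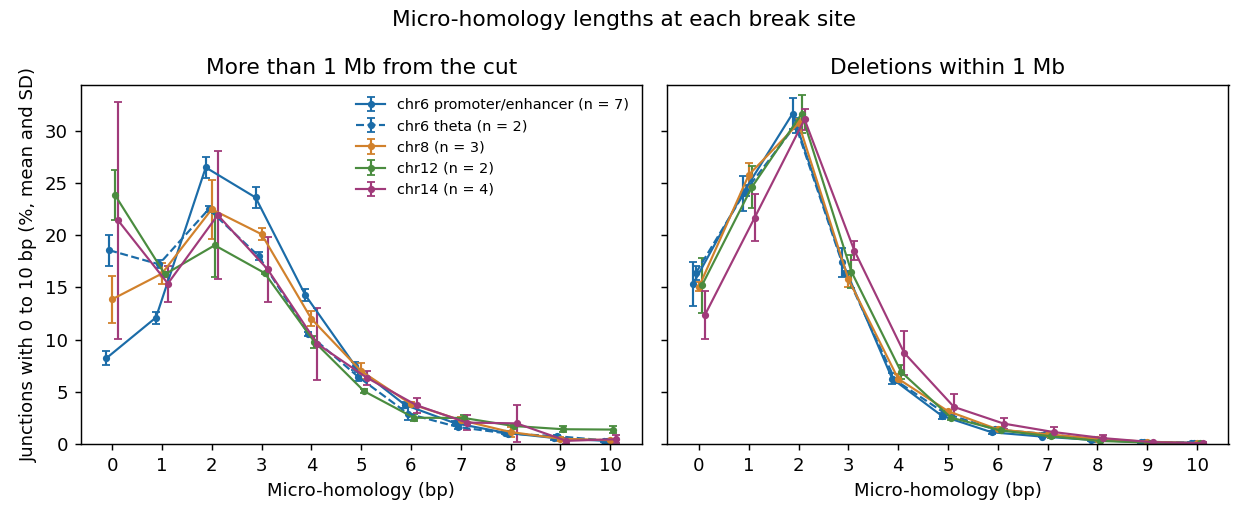
Share of junctions (percent, mean and SD over libraries) by micro-homology length (bp), among junctions with 0 to 10 bp, for junctions more than 1 Mb from the cut (left) and deletions (right), with chr6 split by collection. Distant junctions of the chr6 promoter/enhancer libraries hold 8.21% direct joins against 18.6% in the chr6 theta libraries, while in deletions 2 bp is the highest point of every curve.

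The recurrent deletions show what such joins look like. For each site the most frequent deletion is written across the join, with the micro-homology in capitals.
chr6 deletion of 14 bp: agtagagggtTGGAAtcaatggataatgta
chr8 deletion of 46 bp: tattcttgactTGGTcgactccaaagcaca
chr12 deletion of 94 bp: agaggggactgctGCactatgaccattgtc
chr14 deletion of 18 bp: ccatggcttagTTATgtccatttgtctctc
Each was found in every library of its site, yet each was rare: 0.0392% of deletions at chr6, 0.0352% at chr8, 0.0361% at chr12 and 0.11% at chr14, where replicate 2 alone had 0.349% and the lowest library 0.0178%. Without replicate 2 the chr14 deletion shown had 0.0309% and ranked 10 by its mean share. The 10 most frequent deletions together held 0.283% of deletions at chr6, 0.272% at chr8, 0.312% at chr12 and 0.958% at chr14, or 0.335% there without replicate 2. At most 3 to 7 junctions of a library were identical in prey position, strand, bait end and overlap. The most was 3 in the library of 1139 junctions and 7 in that of 36999. Whether repeated reads of 1 join had been merged before deposit is not known here. These shares therefore cannot show whether a product was preferred at a cut. At chr6 1025 distinct deletions recurred in all 9 libraries and held 11.8% of deletions, while at chr8 1846 recurred in all 3 libraries and held 22.9%.

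Insertions, bases at the join that belong to neither end as aligned, were commoner at chr6 than at chr8 and chr12. Of distant junctions 17.1% to 25.3% carried an insertion at chr6 (median 19.5%). The shares were 12.7%, 13.3% and 12.47% at chr8, 11.5% and 12.3% at chr12, and 20.8%, 42.9%, 20.1% and 20.6% at chr14. No chr8 or chr12 library reached the chr6 range, and the chr6 mean of 20.1% ± 2.72 was 1.57 times that of chr8 (exact permutation p = 0.00455, adjusted p = 0.0165) and 1.69 times that of chr12 (exact permutation p = 0.0182, adjusted p = 0.0346). The call against chr12 was lost, at 5.76 points, when only bait ends that had lost at most 50 bp were counted (exact permutation, adjusted p = 0.0559). Against chr14 the difference did not pass with all chr6 libraries (exact permutation, adjusted p = 0.176, and -0.371 points without replicate 2). With the chr6 libraries of the promoter/enhancer collection alone, the collection of chr14, it was -7.18 points (exact permutation, adjusted p = 0.0323), a call that rested on replicate 2, without which it was -1.60 points (adjusted p = 0.136). In deletions the mean shares were 27.3% (chr6), 27.0% (chr8), 25.6% (chr12) and 26.3% (chr14). The chr6 mean held 2 levels, 25.6% in the promoter/enhancer collection and 33.4% in the theta collection, whose libraries both exceeded those of chr8 and chr12. These means were above those of distant junctions at chr6, chr8 and chr12, and at chr14 without replicate 2 the shares were 25.9% in deletions and 20.5% at distant junctions.

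Many insertions in deletions matched the bait's own end in reverse. Insertions of at least 5 bp were searched for in the last 60 bases of the bait, a search added after values had been seen and given without a test. A match to the reverse complement was found for 19.96% ± 2.56 of them at chr6, 27.2% ± 0.624 at chr8, 14.9% ± 0.657 at chr12 and 19.8% ± 4.75 at chr14. Searching the bait ends of the other sites in the same way gave 1.15%, 0.934%, 1.38% and 0.861%. Matches in direct orientation were fewer, from 3.19% at chr6 to 7.09% at chr8, and distant junctions held 2.61% to 8.60% reverse matches.

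A loss of exactly 2 bp was the commonest bait end in deletions at all 4 sites, with 7.89% ± 0.937 of deletions at chr6, 7.45% ± 0.165 at chr8, 6.004% ± 0.544 at chr12 and 6.76% ± 0.277 at chr14. Such ends carried an insertion more often than all other ends combined: 47.0% against 25.9% at chr6, 39.3% against 26.2% at chr8, 33.1% against 24.6% at chr12 and 48.8% against 24.4% at chr14. The higher value belonged to the 2 bp loss in each of the 18 libraries. Single positions could come close or exceed it, since at chr8 48.0% of ends with no loss carried an insertion, and at chr12 32.5% of those with a loss of 3 bp, over pooled libraries. At chr6 this end is gagggttggaaatgc, whose last 2 bases, GC, are their own reverse complement, and the reverse complement of the whole is gcatttccaaccctc. The inserted bases, in capitals after the bait end, continued that reverse complement base by base from its opening GC.
insertion 1: gagggttggaaatgcA
insertion 2: gagggttggaaatgcAT
insertion 3: gagggttggaaatgcATT
insertion 4: gagggttggaaatgcATTT
insertion 5: gagggttggaaatgcATTTC
insertion 6: gagggttggaaatgcATTTCC
They made up 28.3% ± 2.76, 12.53% ± 1.42, 8.45% ± 1.66, 5.18% ± 1.15, 3.41% ± 0.695 and 1.44% ± 0.626 of the insertions at this end. The longer the match, the rarer it was. Counting matches of any length, 60.3% ± 1.85 of these insertions at chr6 continued the reverse complement (range 57.7% to 63.8% over 9 libraries and both collections). Insertion 1 is a single base, and among insertions of at least 2 bp the share was 46.8% ± 2.68. At chr8, where the end tgcaaatcctaccta closes in TA and its reverse complement reads taggtaggatttgca, the share was 28.9% ± 1.88, with G alone at 12.3%, GG at 5.90% and GGT at 3.46%. C and T, which do not continue it, had 10.8% and 8.34% there. The chr14 end, which also closes in TA, gave 15.1% ± 4.47. Its leading insertions TA, T and A (11.1%, 10.9% and 9.93%) did not continue the reverse complement, and C, which does, had 2.49%. The chr12 end closes in TC, which is not its own reverse complement. A match there would start with G, which is also the bait base that follows this end. It would be read as bait rather than as an insertion, so the count of 0% was fixed beforehand.

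Loss of bait sequence before the join differed between sites mainly at distant junctions. Over losses of 0 to 50 bp, which every bait can show, the mean was 11.1 to 14.95 bp in the chr6 libraries (median 12.9 bp). It was 14.2, 15.2 and 15.2 bp at chr8, 21.9 and 18.8 bp at chr12, and 15.1, 16.3, 13.6 and 14.3 bp at chr14. The chr12 libraries alone lay clear of chr6, with a difference of 7.68 bp (exact permutation p = 0.0182, adjusted p = 0.0346). The chr6 mean of 12.7 ± 1.17 bp was lower than that of chr14 by 2.19 bp (exact permutation p = 0.00839, adjusted p = 0.0280) and that of chr8 by 2.23 bp (adjusted p = 0.0346), with overlap between the libraries in both pairs. The chr8 call was lost without chr8 replicate 2 or 3 (exact permutation, adjusted p = 0.0992 for each). Without chr14 replicate 2 the difference from chr14 was 1.70 bp and no longer passed (exact permutation, adjusted p = 0.0866). Over losses of 0 to 30 bp it turned, with chr6 higher by 0.756 bp (exact permutation, adjusted p = 0.384). In deletions mean losses were 14.01 bp at chr6, 13.0 bp at chr8, 13.1 bp at chr12 and 12.2 bp at chr14, where chr6 was higher than chr14 by 1.80 bp (exact permutation, adjusted p = 0.0187), or by 1.465 bp without replicate 2 (adjusted p = 0.0579).

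Base by base, the bait ends of distant junctions at chr12 and chr14 had peaks far from the cut that deletions lacked. At chr12 4.34% ± 0.433 of distant junctions had lost 43 bp, 4.26% ± 0.500 had lost 93 bp and 3.10% ± 0.276 had lost 60 bp. At chr14 a loss of 81 bp was found in 4.55% (range 2.26% to 11.04%), of which the highest value is that of replicate 2. Without that library the share was 2.38% ± 0.161, below those of ends that had lost 0, 2 and 3 bp (4.90%, 4.09% and 4.02%). These ends were often joined directly: 51.7%, 61.3% and 45.2% of them at the chr12 positions and 68.6% at chr14, over pooled libraries, had no micro-homology and no insertion. Losses above 50 bp made up 39.9% of distant junctions at chr12 and 43.6% at chr14, but only 14.8% and 26.5% of deletions there. Shares above 50 bp are not set against chr6, since its shorter bait leaves less to lose. At chr6 and chr8 the commonest distant ends were within 3 bp of the cut, with 2 bp lost in 8.50% ± 1.58 at chr6 and 0 bp lost in 5.67% ± 0.897 at chr8.

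**Figure D5:**
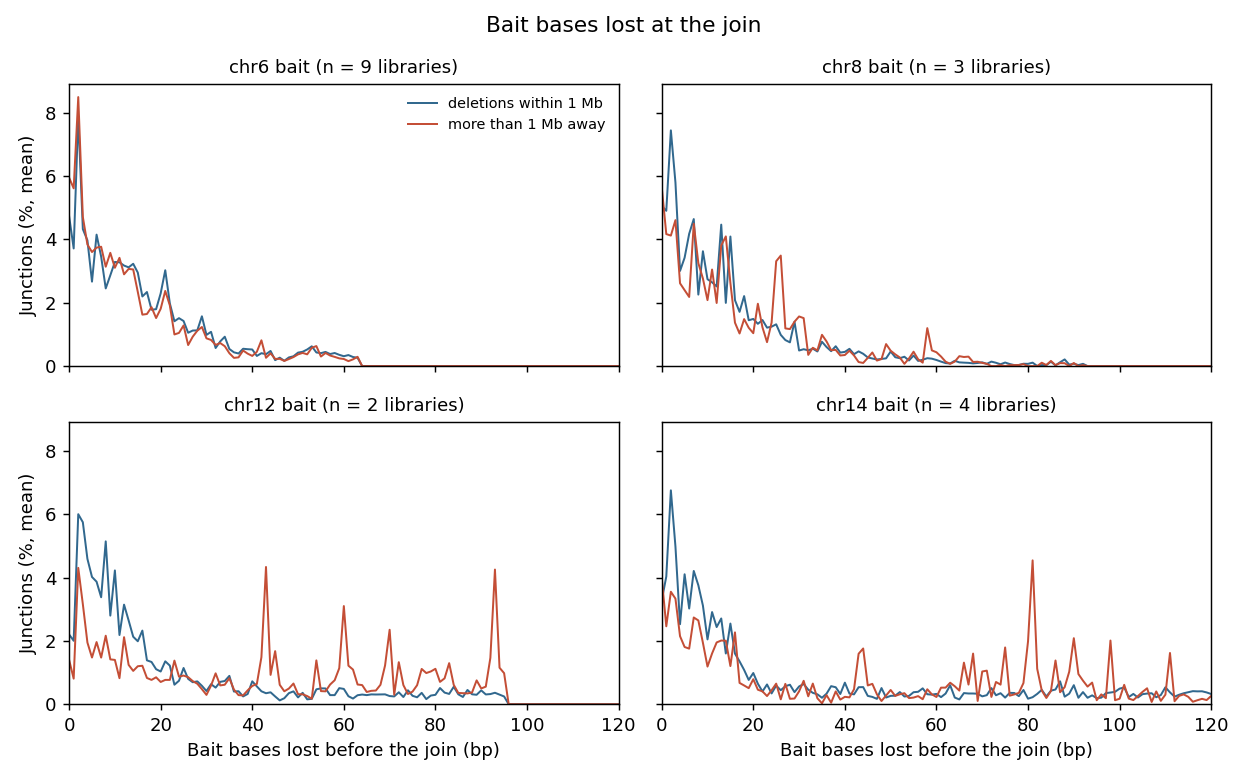
Share of junctions (percent, mean over libraries) by bait bases lost before the join (bp, up to 120), for deletions (blue) and junctions more than 1 Mb away (red) at each bait. Deletions peak at a loss of 2 bp at all 4 sites, and distant junctions have separate peaks at 43, 60 and 93 bp at chr12 and at 81 bp at chr14, the last at 11.04% in replicate 2.

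Across the 4 tested pairs 23 of 40 measures differed. The chr6 libraries differed from chr14 in 8 of 10 measures, from chr8 in 8 and from chr12 in 5, and chr8 differed from chr14 in 2. The 5 calls against chr12 rest on 2 libraries, and with either left out no test could pass. With 2 libraries, chr12 was not tested against chr14 or chr8, since the smallest p of the exact permutation test there is 0.0667 and 0.1. Side by side, chr12 had more translocations than both (16.8% against 9.78% and 6.81%), more inversions (11.3% against 4.64% and 7.43%) and longer mean bait-end loss (20.3 against 14.8 and 14.9 bp). In wild-type primary cells under aphidicolin, the only chr6 and chr14 libraries here that share 1 run (n = 3 and 4), translocations and inversions were again higher at chr6 (77.8% against 63.7%, and 10.7% against 4.87%, the latter from 10 to 23 inversions a library at chr6 and 26 to 38 at chr14), whereas median deletion length (28.2 bp against 68.4 bp), primer-side joins (21.2% against 37.6%) and direct joins (38.0% against 25.2%) turned the other way.

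Translocation prey were spread over the genome, with a few windows of 1 kb that drew a visible share. For the chr8 bait 4.87% ± 0.758 of translocations (4.37% to 5.74% in 3 libraries) fell in chr14:22766000-22766999, an intron of *Lrmda*, a gene linked to melanocyte differentiation, and neighbouring windows held 0.923% and 0.624%. For the chr6 bait 0.424% ± 0.167 fell in chr4:141560000-141560999, between genes. No junction of another bait was counted in either window. Joins to a bait's own chromosome were left out of this count, so the chr14 bait could not enter the *Lrmda* window. Both windows contain a sequence close to the guide of their bait, next to a PAM. Mismatches to the guide are in capitals, and the PAM is in lower case at the end.
chr8 bait, chr14:22766302-22766321, minus strand: AGTgaccatatgctaatctAggg
chr6 bait, chr4:141560029-141560048, minus strand: AGgggCtggaaatgcCcgtGagg
Counted from 1 at the guide's 5′ end, the former differs from the guide by G1A, T2G, C3T and T20A, and the latter by G1A, A2G, T6C, T16C and A20G. The cut that such a match would give lies 5 bp from the commonest prey position in *Lrmda* and at 0 bp from it on chr4. The best match to the guide in the other leading windows had 9 to 12 mismatches.

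Those other windows were of a different kind. The chr6 and chr12 baits shared chr2:98666000-98666999, at 0.718% and 0.764% of translocations, a window at *Gm10800* of which 65.3% is repeat-masked. With the chr14 bait the leading window was chr16:75718000-75718999, between genes, with 2.01% (range 1.25% to 3.65%), or 1.46% without replicate 2, and every junction on the minus strand. The next were chr5:136982000-136982999 in an intron of *Znhit1*, a zinc-finger gene of a chromatin-remodelling complex, at 1.006% (0.612% without replicate 2), and chr4:102620000-102620999 near *Pde4b*, which encodes a cyclic AMP phosphodiesterase, at 0.70% (0.204% without replicate 2), where only 8 junctions were found. Both also held junctions of 1 strand only.

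Long neural genes that the study names as recurrent copy-number losses were followed as prey, per 1000 distant junctions per Mb of gene, where the genome averages 0.3669. No average was computed for a bait's own chromosome, so this value gives no measure of excess for genes there. With the chr14 bait 162 of 1080, 17 of 154, 176 of 975 and 141 of 840 distant junctions lay on chromosome 14. *Ctnna2*, which encodes an alpha-catenin of neuronal adherens junctions, reached 6.21 ± 3.15 with the chr6 bait. It lies at chr6:76881637-77979699, on the chromosome of that bait. With the other baits *Ctnna2* gave 0.234 to 0.731. *Nrg3*, a neuregulin gene on chromosome 14, gave 1.88 ± 1.68 with the chr14 bait, from 8 junctions in 3 of 4 libraries, and 0 to 0.685 with the others. *Magi2*, *Lrp1b* and *Cadm2*, which encode a synaptic scaffold, a lipoprotein receptor and an adhesion molecule, lie on chromosomes without a bait and stayed between 0 and 0.961 with all baits. Among these genes the 2 highest values thus belonged to a gene on the chromosome of the break.

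Of genes of at least 100 kb on other chromosomes, the densest for the chr8 bait was *Lrmda*, at 62.8 ± 6.24, which holds the guide-like site. *Chchd3*, a mitochondrial cristae gene, followed at 14.9 ± 12.7 and *Ror2*, a Wnt receptor gene, at 5.74 ± 0.626 from 3 junctions. With the chr6 bait the leading genes were *Tacc2*, a centrosomal coiled-coil gene, at 2.37 ± 3.01, *Mid1*, a ubiquitin ligase gene, at 2.15 ± 1.25, and *Ptprt*, a receptor phosphatase gene, at 1.25 ± 0.687. The 3 leading genes of the chr12 bait held at most 5 junctions each and are not named. No gene met the rule for the chr14 bait, whose libraries held 154 to 1080 distant junctions each.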

How the data were processed

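The authors ran the HTGTS pipeline, which trims reads, aligns them with Bowtie2 (here to mm10, GRCm38) and filters junctions, and tool versions are not given in the sources used here. The deposited files list 1 junction a line, with the prey's coordinates and where bait and prey align along the read, as other values without normalization. The guide sequence of each bait set the cut. Micro-homology was the overlap of bait and prey in the read, and a negative overlap an insertion. Only junctions on the 19 autosomes and the sex chromosomes entered (0 to 0.568% lay elsewhere). Near means up to 1 Mb from the cut. Micro-homology, insertion and bait-end measures use junctions beyond it.

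Libraries were grouped by their labels and compared by two-sided exact permutation tests of means, with Benjamini-Hochberg adjustment over 40 tests and a threshold of 0.05. The 10 measures were checked on simulated junctions and the exact tests on inputs with known answers, but the descriptive searches were not checked this way. The software was Python 3.11.15, NumPy 2.4.6, pandas 2.3.3, SciPy 1.17.1 and, for figures, Matplotlib 3.10.9. Sequences were read from GRCm38 and genes from GENCODE M21.

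Named were the nearest gene of each cut, genes the study names as recurrent losses, and per bait the 3 most frequent deletions, 1 kb prey windows and long genes on other chromosomes (at least 100 kb, with junctions in every library or at least 20 junctions). Some of these are not reported here. The members, measures and lists were chosen with earlier results of these data known. Alternatives covered repeated positions, collections, left-out libraries, replicate numbers, distance limits, near or distant junctions and loss limits, and wild-type cells, and 3 were added after seeing the data.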

Additional observations from a re-analysis of the deposited data

Results flagged for a closer look

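In 20 groups, made of 10 measures in the 9 chr6 and in the 4 chr14 libraries, a library far from the rest was sought. The chr8 and chr12 libraries were not examined this way. By the gap to their neighbour 4 values stood out, all of chr14 replicate 2, the library of 1139 junctions. About 1 in 20 separate groups would do so by chance, but measures of 1 library share its junctions, so the 4 are not separate. Its inversion share was 2.384%, against 5.15% to 5.54% in the other chr14 libraries. Its median deletion length was 209 bp, against 526 to 568 bp. Direct joins made up 38.37% of its distant junctions, against 14.9% to 16.6%, and insertions 42.86%, against 20.1% to 20.8%. In this library 86.7% of junctions were first occurrences of their position, against 94.5% to 94.6% in the others, and the part of depth in these values was not tested.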

How the results depend on the processing

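Differences are given as the former site minus the latter, in percentage points, in bp for deletion length and bait-end loss. Of 40 results under 756 alternatives, 7 kept their direction and side of the threshold in every alternative and 26 in every fit with 1 library left out. The counts of translocations, deletions and inversions set chr6 apart from chr14 in all alternatives with DMSO libraries that could be tested. Distant joining measures moved most, and the cause of each change was not tested unless stated. Depth limits chr14 replicate 2 (154 distant junctions), the other chr14 libraries (840 to 1080) and the chr8 libraries (881 to 1091).

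With 1 library left out (13 fits for chr6 and chr14), the chr6 minus chr14 difference ranged from -13.1 to -5.25 for direct joins, from -1.01 to 0.740 for long micro-homology and from -2.61 to -1.70 for bait-end loss. For chr6 minus chr8 it ranged from -0.893 to 0.0958 for long micro-homology, from -2.55 to -2.03 for bait-end loss and from 142 to 174 for median deletion length. For chr6 minus chr12 it ranged from 8.02 to 9.26 for primer-side joins, from -11.2 to -8.57 for deletions, from -0.481 to 0.758 for long micro-homology and from -18.7 to 126 for median deletion length. For chr8 minus chr14 it ranged from -1.78 to 0.608 for primer-side joins, from -0.750 to 1.87 for deletions, from -0.619 to 1.13 for long micro-homology and from -0.379 to 0.530 for bait-end loss. Adjusted p for direct joins of chr6 against chr14 reached 0.124 without chr14 replicate 2 and 0.0545 without chr14 replicate 1 (0.0519 without replicate 3 or 4). For bait-end loss it was 0.0866 and 0.0606 without replicates 2 and 1. The median deletion length of chr6 against chr8 was lost without each chr8 library (exact permutation, adjusted p = 0.0693 to 0.121), and the bait-end loss of that pair without chr8 replicate 2 or 3 (0.0992 for each).

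With chr6 libraries of the promoter/enhancer collection alone, long micro-homology differed by 0.383 (chr6 minus chr14) and 0.0880 (chr6 minus chr8), insertions by -7.18 (chr6 minus chr14, exact permutation, adjusted p = 0.0323, but -1.60 and 0.136 without chr14 replicate 2) and direct joins by -5.65 (chr6 minus chr8, adjusted p = 0.0238). Without chr14 replicate 2 as well, direct joins of chr6 minus chr14 differed by -7.55 (exact permutation, adjusted p = 0.0303). With the 2 chr6 libraries of the theta collection alone no test could pass. Joins to the bait chromosome then differed by 3.28, 3.43 and 2.85 and inversions by 3.93, 1.14 and -2.69 from chr14, chr8 and chr12. From chr8 and chr12, primer-side joins differed by 6.26 and 5.34, direct joins by 4.70 and -5.26, long micro-homology by -2.07 and -1.54, and insertions by 11.6 and 12.52.

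Replicate numbers did not pair the libraries, since the deviations of same-numbered libraries correlated at -0.846 to -0.0945 (chr6 and chr14), 0.151 and 0.201 (chr6 theta and chr8) and -0.609 (chr6 theta and chr12). With the number as a replicate block no test could pass. Joins to the bait chromosome differed by 5.38, 3.45 and 2.85 from chr14, chr8 and chr12, and long micro-homology by 0.470, -2.57 and -1.54. From chr8 and chr12 under the block, primer-side joins differed by 6.51 and 5.34, inversions by 1.22 and -2.69, direct joins by 5.88 and -5.26, and insertions by 11.4 and 12.52. For chr8 minus chr14 the block gave 0.335 for primer-side joins and -0.140 for bait-end loss.

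In deletions instead of distant junctions, direct joins differed by 3.19 (chr6 minus chr14), 2.69 (chr8 minus chr14), 0.501 (chr6 minus chr8) and 0.361 (chr6 minus chr12). Insertions differed by 1.07, 0.694, 0.373 and 1.70 in the same order, and bait-end loss by 1.80 (chr6 minus chr14), 1.03 (chr6 minus chr8) and 0.898 (chr6 minus chr12). Long micro-homology differed by -2.03 (chr6 minus chr14, exact permutation, adjusted p = 0.0187, but 0.0758 without chr14 replicate 2) and -1.17 (chr8 minus chr14). With other chromosomes alone, long micro-homology differed by -0.330 (chr8 minus chr14) and -0.0191 (chr6 minus chr12) and bait-end loss by -0.499 (chr8 minus chr14). With the limit at 5 Mb long micro-homology of chr8 minus chr14 was -0.0957, and with each position counted once primer-side joins of that pair differed by 0.0540.

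At least 200 bp from the cut, chr8 minus chr14 was 2.14 for inversions, 1.05 for primer-side joins and 168.4 for median deletion length (exact permutation, adjusted p = 0.0519), and chr6 minus chr12 was -1.83 for the latter. From 200 bp to 10 kb, chosen after seeing the data, the values were 2.12 for inversions and 167.6 for median deletion length (chr8 minus chr14), and -5.94 for length (chr6 minus chr12). With insertions in the total, long micro-homology differed by 1.012 (chr6 minus chr14) and -0.993 (chr6 minus chr12). The median loss gave -1.43 and -6.56 for these pairs, losses of 0 to 30 bp gave 0.756 and -1.32, and all losses gave -27.5 for chr8 minus chr14, where the longer chr14 bait can lose more. With bait ends lost by at most 50 bp, chosen after seeing the data, direct joins differed by -2.19 (chr6 minus chr14), 1.07 (chr8 minus chr14) and -9.20 (chr6 minus chr12, exact permutation, adjusted p = 0.0559). Long micro-homology then differed by 1.82 (chr6 minus chr14, exact permutation, adjusted p = 0.0448) and 2.43 (chr6 minus chr12, adjusted p = 0.0383), and insertions by -9.05 (chr8 minus chr14, adjusted p = 0.0497, but -5.88 without chr14 replicate 2, where no test could pass) and 5.76 (chr6 minus chr12, adjusted p = 0.0559).

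In primary wild-type neural stem and progenitor cells under aphidicolin (0.5 µM for 72 h, then 0.25 µM for 24 h), 3 chr6 and 4 chr14 libraries of 1 run, chr6 minus chr14 was 1.17 for joins to the bait chromosome, -16.5 for primer-side joins, -40.2 for median deletion length, 12.7 for direct joins, -11.0 for long micro-homology and 21.6 for insertions. Genotype, cell type and drug all differ there from the DMSO libraries and cannot be told apart.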

Other observations

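Prey chromosomes, set against their length, differed by bait. With the chr8 bait chromosome 14, which holds *Lrmda*, received 2.59 ± 0.198 times the translocations its length would give. With the chr6 bait chromosome 8 received 1.45 ± 0.301 times (0.951 to 1.72 over 9 libraries), with the chr12 bait 0.958 and with the chr14 bait 0.876. Chromosome 11 lay above its length with every bait, at 1.28 (chr6), 1.22 (chr8), 1.36 (chr12) and 1.57 (chr14), whereas chromosome 1 stayed near it, at 0.978 to 1.12.

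The dinucleotides used as 2 bp micro-homology in deletions were set against those present in the last bases of each bait. At chr12 both bases were G or C in 31.6% ± 2.55 of such joins, against 21.6% of positions, and both were A or T in 12.2% against 21.6%. At chr14 A or T pairs were used in 44.7% against 43.1% of positions, and at chr6 in 24.0% against 25.5%. At chr8 they were used in 37.3% against 43.1%. CC was used at 15.7% at chr12 and 0.633% at chr6, where it makes up 7.84% and 3.92% of positions. Positions are not replicates, and no test was made.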
